A study of Mus musculus with 4 samples.

Results

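Arterial endothelial cells of the mouse lung were selected on their measured UMI counts of marker genes from 4 droplet-based single-cell libraries, and 157 of 15428 barcodes met the rule. A barcode was a member when it held 200 to 7500 genes, at most 10% of unique molecular identifiers (UMIs, counts of captured transcripts) from mitochondrial genes, and at least 1 UMI of Cdh5 (VE-cadherin, a marker of endothelium). It also held at least 1 UMI of 2 or more of Gja5, Sema3g, Bmx and Dkk2, fewer than 2 of the venous genes Slc6a2, Bst1, Vegfc and Nr2f2, fewer than 2 UMIs of Ednrb, and no UMI of Prox1, Ptprc or Col1a2, which mark lymphatic endothelium, leukocytes and fibroblasts. Since the data fitted the arterial label only in part, the members are called arterial-marker cells.

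All mice were male wild-type C57BL/6 animals on a food-restricted diet, reduced to 70% of ad libitum intake. Young mice were 2 to 3 months old and aged mice 22 months old, and at each age a naive nonventilated group was set beside a group ventilated for 3 hours at 150 breaths/min, with a tidal volume of 20 mL/kg (at most 0.6 mL), no positive end expiratory pressure (0 cm H2O) and an inspired oxygen fraction of 1.0. The ventilated mice also received anesthesia, analgesia and vascular lines, so each ventilated over nonventilated ratio includes these. Cells of the left lobe were digested and frozen, and the cells of 3 mice were pooled into 1 library per group, so that differences of ventilation and age had no replicate within a group and were not tested. Where 4 values stand in a row, the young libraries come first and, within each age, the nonventilated library precedes the ventilated one.

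Arteries carry blood at high pressure, and their endothelium is known for Notch signaling, ephrin-B2, connexin 40 (the product of Gja5) and contact with an elastic wall. The capillary bed holds aerocytes, which exchange gas, and general capillary cells, which renew the bed. Endothelium also senses stretch and shear, sets vascular tone, and after injury or interferon displays adhesion molecules and chemokines to leukocytes.

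The arterial-marker cells numbered 69, 13, 56 and 19. The libraries held 3630, 4497, 3901 and 3400 barcodes with 41222284, 44404172, 45218176 and 40655452 UMIs, of which 2942, 3327, 3025 and 2552 barcodes lay within the limits on genes and mitochondrial UMIs. Summed over members, 888804, 146884, 729427 and 363043 UMIs were available, with medians of 9805, 10809, 11515.5 and 15406 UMIs per cell and median mitochondrial shares of 4.48%, 4.57%, 4.12% and 4.28%. A single UMI was therefore worth 1.13, 6.81, 1.37 and 2.75 CPM (UMIs of the gene per 1000000 UMIs summed over the members of that library), and the young ventilated library, with the fewest members, had the coarsest scale. Single libraries shared at most 7 barcodes with each other, and no member's barcode occurred in another library.

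By the rule's own genes, which are a description and not a result, Cdh5 stood at 1101, 789.7, 1099 and 1030.2 CPM in the members and Sema3g, a secreted semaphorin, at 464, 184, 391 and 275 CPM. Gja5 stood at 87.8, 68.1, 76.8 and 107 CPM, the kinase gene Bmx at 141, 74.9, 69.9 and 68.9 CPM and the Wnt modulator gene Dkk2 at 14.6, 102, 0 and 22.0 CPM. Sema3g was found in 152 of the 157 members, and the pairs of Sema3g with Bmx (66 cells) and with Gja5 (56 cells) made up most of them. All UMIs of Dkk2 in each ventilated library came from 1 cell. Just inside the threshold were 126 members with 2 markers, beside 28 with 3 and 3 with all 4. Just outside it were 1191 endothelial barcodes with 1 marker, and 1171 of these held Sema3g alone. The limits on venous genes and on Ednrb removed a further 8 and 22 barcodes that had 2 or more arterial markers.

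The label was checked against genes that the rule did not use, with general capillary cells of the same libraries beside them (437, 413, 385 and 268 cells). Of 22 arterial genes that averaged 50 CPM or more in either class, 14 were higher in the arterial-marker cells in 4 of 4 libraries and 1, Sox17, was lower in 4 of 4. The median log2 ratio over these genes was 0.74, beside −0.0034 over all 3906 genes, of which 566 were higher and 574 lower in 4 of 4 libraries. Of the 22 genes, 6 (Cdh13, Fbln2, Sulf1, Ltbp4, Hey1 and Depp1) reached 50 CPM in the arterial-marker cells alone and so had to be higher there on average. Over the 16 that reached it in capillary cells too, 10 were higher and 1 lower in 4 of 4 libraries, with a median of 0.59, beside −0.025 over the 3671 genes that did so. By library, the median of all 22 averaged 0.85 ± 0.28 (SD, n = 4). Cdh13 (T-cadherin) stood at 317, 722, 100.1 and 289 CPM in the members and at 0.518, 26.8, 1.00 and 5.29 CPM in the capillary cells. Matrix Gla protein (Mgp), an inhibitor of vascular calcification, stood at 821, 4024, 232 and 1487 CPM against 36.8, 57.9, 50.5 and 76.3 CPM. The transcription factor gene Mecom stood at 496, 381, 440.1 and 402 CPM against 28.5, 46.8, 57.5 and 89.5 CPM. In these 3 genes the members were higher in every library. Ltbp4, which binds latent TGF-β and helps to assemble elastic fibers, stood at 217, 395, 174 and 267 CPM against 39.9, 34.9, 29.1 and 29.1 CPM, and the ephrin-B2 gene Efnb2 at 863, 783, 855 and 851 CPM against 549.9, 287, 535 and 429.8 CPM. Ephrin-B2 differed least of the 5, although it was higher in the members in each library.

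**Figure D1:**
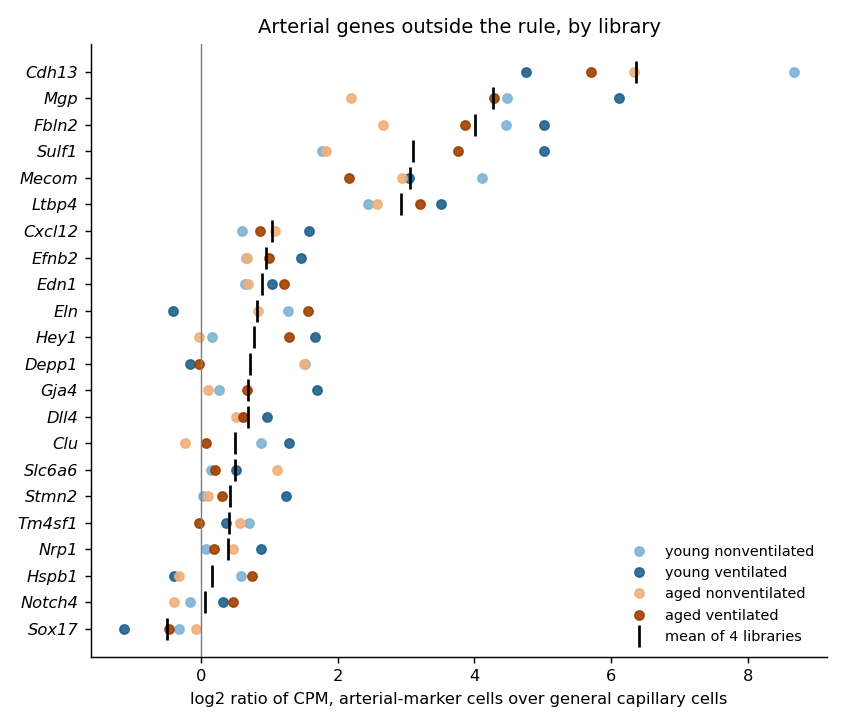
Log2 ratio of CPM (x axis) in arterial-marker cells over general capillary cells for 22 arterial genes outside the rule, with a point per library and a bar at the mean of the 4 libraries. Points of 14 genes lie right of 0 in all 4 libraries and those of Sox17 lie left of it in all 4.

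Outside that list, the largest differences included Efna5, an ephrin ligand, at 155, 858, 69.9 and 361 CPM against 0.518, 9.01, 0.502 and 2.64 CPM. Its UMIs were found in 10, 5, 4 and 3 members, so few cells carried these levels. Thsd7a, a membrane protein gene, stood at 276, 279, 173 and 267 CPM against 11.9, 9.46, 8.28 and 6.28 CPM, and the adhesion receptor gene Adgrg6 at 212, 177, 159 and 99.2 CPM against 11.1, 13.1, 10.5 and 7.60 CPM. All 3 genes were higher in the members in 4 of 4 libraries. Von Willebrand factor (Vwf), which is high in larger vessels, stood at 538, 871, 701 and 711 CPM against 104, 89.2, 235 and 301 CPM. Among genes of the capillary bed, the apelin receptor gene Aplnr stood at 42.8, 0, 2.74 and 0 CPM against 134, 33.8, 56.7 and 12.6 CPM, and the cyclooxygenase gene Ptgs1 at 19.1, 13.6, 20.6 and 27.5 CPM against 69.7, 90.3, 75.3 and 139 CPM. Both were lower in the members in every library, but the capillary cells were selected in part on Aplnr, which favored its difference.

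Of 10 general capillary markers, 8 were lower in the members in 4 of 4 libraries and 1, Ptprb, was higher, with a median log2 ratio of −0.44. The capillary cells were themselves selected on Gpihbp1, Kit and Aplnr. Gpihbp1, which anchors lipoprotein lipase, stood at 619, 238, 525 and 617 CPM in the members against 859, 421, 697 and 690.4 CPM, and Ptprb (VE-PTP), a phosphatase of the angiopoietin receptor, at 3501, 1082, 3127 and 1333 CPM against 2961, 731, 2349 and 1050.2 CPM. At least 2 of the capillary genes Gpihbp1, Kit and Aplnr were found in 112 of the 157 members (71.3%). In the nonventilated libraries, the 90 members of this kind had Mgp at 33.0 CPM, Mecom at 111 CPM and Cdh13 at 4.71 CPM, while the 35 others had 2482, 1798 and 1011 CPM. In the ventilated libraries, the 22 members with capillary genes had Mgp at 506 CPM and Cdh13 at 55.4 CPM, and the 10 others had 7178 and 1452 CPM. Efnb2, at 876 and 799 CPM, and Sox17, at 169.7 and 130.3 CPM, were not higher in the nonventilated members without capillary genes. These members also had fewer UMIs per cell, with medians of 7930 against 11673 without and 10894 against 15071 with ventilation, and the part of depth in the split was not tested.

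Markers of other cell types were also counted. Of 5 venous genes outside the rule that averaged 50 CPM or more in either class, 3 (Vwf, Vcam1 and Selp) were higher in the members than in capillary cells in 4 of 4 libraries and 1 (Hdac9) was lower in 4 of 4, with a median log2 ratio of 2.12. Vcam1 and Selp reached 50 CPM in the arterial-marker cells alone and so had to be higher there on average. The median includes both and is therefore no check of the label. The 9 venous markers, led by Vwf and with Ackr1 at 0 UMIs, summed to 1082, 2383, 1259 and 1600.4 CPM, against 523, 312, 828 and 628 CPM in capillary cells. The summed level of 8 smooth muscle markers was 61.9, 211, 103 and 82.6 CPM, led by Acta2, with Lmod1 at 0 UMIs in all libraries. The 8 pericyte markers, led by Notch3, summed to 19.1, 6.81, 10.97 and 5.51 CPM, with Cspg4 and Kcnj8 at 0. The 8 fibroblast markers, with Mfap4 first by UMIs over all members and Pdgfra first by mean CPM over libraries, summed to 24.8, 20.4, 16.5 and 223 CPM, and in the aged ventilated library 97.6% of the UMIs of Pdgfra came from the cell with the most UMIs. The 10 alveolar epithelial markers, led by Hopx, summed to 515, 129, 278 and 118 CPM, and 99.3% of the young nonventilated UMIs of Ager came from 1 cell. The 12 leukocyte markers, with Lyz2 first by UMIs and S100a9 first by mean CPM, summed to 39.4, 68.1, 37.0 and 66.1 CPM with Cd3e, Ccl5 and Nkg7 at 0, and the 5 erythroid markers to 0, 6.81, 0 and 2.75 CPM. Of the 157 members, 13 had at least 2 smooth muscle markers, 3 at least 2 pericyte markers, 6 at least 2 fibroblast markers, 41 at least 2 alveolar epithelial markers and 10 at least 2 leukocyte markers, and 25 had over 5000 genes. No doublet caller was run, and the part of doublets and free RNA in the results was not tested.

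The share of arterial-marker cells among barcodes within the limits was 2.35% in the young nonventilated library (exact Clopper-Pearson 95% interval 1.83% to 2.96%) and 0.391% in the young ventilated library (0.208% to 0.667%). In the aged libraries it was 1.85% (1.40% to 2.40%) without and 0.745% (0.449% to 1.16%) with ventilation. The shares were lower in both ventilated libraries, and the intervals of the ventilated and nonventilated libraries did not overlap at either age. Intervals here and later cover counting error only, not differences between mice. Those of the ratios below count UMIs and also leave out differences between cells. As a share of endothelial barcodes (934, 925, 775 and 615), the members made up 7.39%, 1.41%, 7.23% and 3.09%.

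Sema3g, found in nearly all members, was also lower after ventilation in general capillary cells, at 325, 74.3, 298 and 129.8 CPM, where 83.3%, 39.7%, 78.7% and 55.6% of the cells held a UMI. A gate that did not need Sema3g, on at least 1 UMI of Gja5, Bmx or Dkk2, took 76, 19, 59 and 23 cells (2.58%, 0.571%, 1.95% and 0.901%), and with it the intervals of the ventilated and nonventilated libraries did not overlap at either age. Since a cell with 2 of the 4 markers always passed this gate, all 157 members were among its cells, and it is no independent check of the shares. A gate on at least 4 of 8 genes outside the rule (Mgp, Ltbp4, Mecom, Cdh13, Fbln5, Fbln2, Sulf1 and Htra1), chosen after their values were seen, took 23, 24, 24 and 16 cells (0.782%, 0.721%, 0.793% and 0.627%). With this gate, the intervals of all 4 libraries overlapped. However, 3 of its genes (Mgp, Cdh13 and Sulf1) were called higher in young ventilated members and 2 of these (Mgp and Cdh13) in aged ones, so cells could pass through genes that were high after ventilation. Only 14 of 23, 7 of 24, 15 of 24 and 6 of 16 of these cells were members. In these cells Gja5 stood at 159, 29.0, 55.5 and 27.9 CPM, and Sema3g at 334, 71.1, 335 and 237 CPM. Fewer arterial cells and less marker RNA per cell cannot be told apart in these data.

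**Figure D2:**
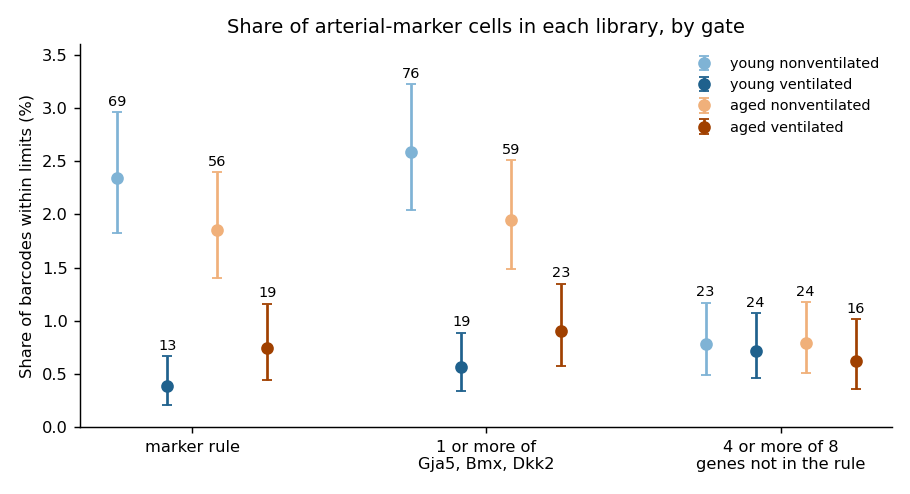
Share of barcodes within the limits (y axis, percent) taken by the marker rule and by the other gates in each library, with exact 95% intervals as bars and the number of cells above them. The shares by the rule are 2.35%, 0.391%, 1.85% and 0.745%, whereas those by 4 or more of 8 genes lie between 0.627% and 0.793%.

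To describe the response to ventilation, UMIs were summed over the members of each library, and 3638 genes that averaged 50 CPM or more over the libraries were compared. A gene could reach this average through the libraries where it was high, so such genes were favored among the calls. A gene was called when its CPM differed by at least 2-fold (a log2 ratio of at least 1 with 1 UMI added to each sum) and the exact binomial 95% interval of the ratio left out 1. This interval takes UMIs as independent, although those of a gene can come mostly from 1 cell, so it is too narrow for such genes. In young mice, 761 genes were called (20.9% of those tested), with 377 higher (10.4%) and 384 lower (10.6%) after ventilation. In aged mice, 490 were called (13.5%), with 214 higher (5.88%) and 276 lower (7.59%). Since the number of members sets how many genes can be called, the numbers do not compare the ages, and with 13 members drawn from each library 806 and 687 genes were called. Across genes, which are not independent replicates, the log2 ratios at the 2 ages had a Pearson r of 0.51 and a Spearman rho of 0.44. Of the young calls, 31.1% were called the same way in aged mice, and of the aged calls 48.4% were called the same way in young mice (237 genes).

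Of the 10 largest increases in young mice, 4 were in interferon-induced genes (Cxcl10, Rsad2, Ifit3 and Ifit2). Cxcl10, a chemokine that attracts T cells, stood at 4.50, 477, 53.5 and 5.51 CPM, from 4, 70, 39 and 2 UMIs. It was 106-fold higher (95% interval 39.6 to 399) in the young ventilated than in the young nonventilated library and 9.71-fold lower (95% interval 2.51 to 83.0) in the aged ventilated than in the aged nonventilated library. The highest value of Cxcl10 was that of the young ventilated library, where 8 of 13 members held a UMI. Rsad2 (viperin, an antiviral enzyme) stood at 10.1, 436, 85.0 and 19.3 CPM, which was 43.0-fold higher (95% interval 21.3 to 98.4) in young and 4.41-fold lower (95% interval 2.02 to 11.4) in aged mice. In the young ventilated library, 50.0% of the Rsad2 UMIs came from 1 of the 13 cells. In the aged nonventilated library, 71.0% of the Rsad2 and 53.8% of the Cxcl10 UMIs came from the same 1 of 56 cells. The lower ratio of Rsad2 in aged mice therefore rested largely on that cell. For Cxcl10 it held 21 of the 39 UMIs, and the aged ventilated members held 2, so the lower ratio rested on that cell only in part. Ifit3, an antiviral protein gene that can share reads with its near-identical copies, stood at 19.1, 517, 54.8 and 27.5 CPM and was 27.1-fold higher (95% interval 15.8 to 48.8) in young mice. Ifit2 of the same family stood at 15.8, 218, 6.85 and 19.3 CPM, again highest in the young ventilated library. Gbp2, a guanylate-binding protein gene, stood at 158, 1055, 206 and 85.4 CPM and was found in all 13 young ventilated members, where it was 6.70-fold higher (95% interval 5.30 to 8.48). Isg15, a ubiquitin-like modifier gene, stood at 77.6, 599, 158 and 154 CPM and was also found in all 13 of these members.

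Of 25 interferon response genes, all of them tested, 16 were called higher and 0 lower in young mice after ventilation, beside 10.4% and 10.6% of all genes. Their median log2 ratio was 1.25, beside 0.04 over all genes, and all 25 had a higher value in the ventilated library. In aged mice, 0 were called higher and 4 (Gbp2, Gbp4, Rsad2 and Cxcl10) lower, beside 5.88% and 7.59% of all genes. The median in aged mice was −0.20, beside 0.01 over all genes. The summed level of the list was 5161, 12023, 4687 and 3812 CPM. The young ventilated library stood apart from the other 3, which were near each other. General capillary cells had medians of 1.37 in young and 0.12 in aged mice for the same genes. The difference between the ages has no replicate and was not tested. Cxcl10, Rsad2, Ifit3 and Ifit2 averaged 50 CPM only through the young ventilated library, so the filter favored their calls as higher there. The list was also chosen with earlier results of these data known, so its counts are a description.

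The upstream sequences of the genes that carry these values are given to show the letters on which interferon factors and the metal-sensing factor MTF1 are known to act. They are the 250 bases before the RefSeq start in GRCm38.p6, written 5′ to 3′ along the gene, and were chosen as the interferon genes named both in the young response and between the ventilated libraries, with the metallothionein genes. Capitals mark matches on either strand to GAAA, any 2 bases and GAAA, letters of the interferon-stimulated response element, in Cxcl10 (chr5:92348890-92349139, minus strand), Rsad2 (chr12:26456453-26456702, minus strand) and Ifit3 (chr19:34583279-34583528, plus strand).
Cxcl10: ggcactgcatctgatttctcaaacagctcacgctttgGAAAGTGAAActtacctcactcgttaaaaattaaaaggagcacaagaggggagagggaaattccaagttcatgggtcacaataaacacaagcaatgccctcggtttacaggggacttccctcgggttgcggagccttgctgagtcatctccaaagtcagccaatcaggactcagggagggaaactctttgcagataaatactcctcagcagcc
Rsad2: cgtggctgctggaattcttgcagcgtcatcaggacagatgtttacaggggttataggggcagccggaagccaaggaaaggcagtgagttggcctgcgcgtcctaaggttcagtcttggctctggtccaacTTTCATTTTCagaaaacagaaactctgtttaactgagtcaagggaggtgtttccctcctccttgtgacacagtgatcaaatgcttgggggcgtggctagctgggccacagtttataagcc
Ifit3: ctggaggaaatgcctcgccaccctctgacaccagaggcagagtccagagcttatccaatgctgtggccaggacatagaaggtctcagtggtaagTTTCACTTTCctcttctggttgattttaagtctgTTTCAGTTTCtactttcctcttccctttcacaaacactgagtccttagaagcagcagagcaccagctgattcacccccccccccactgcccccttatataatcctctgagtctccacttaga
Ifit3 held 2 matches and the others 1 each. Of 32851 upstream sequences of this length, 2.98% held at least 1 match and 0.18% at least 2. Capitals in the next sequences mark TGCACNC or TGCGCNC on either strand, letters of the metal response element, in Mt1 (chr8:94178839-94179088, plus strand) and Mt2 (chr8:94172368-94172617, plus strand).
Mt1: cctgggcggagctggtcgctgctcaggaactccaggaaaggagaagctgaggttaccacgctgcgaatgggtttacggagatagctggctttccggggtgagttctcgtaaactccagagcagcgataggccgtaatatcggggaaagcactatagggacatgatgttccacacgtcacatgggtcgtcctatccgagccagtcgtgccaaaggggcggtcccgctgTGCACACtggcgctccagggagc
Mt2: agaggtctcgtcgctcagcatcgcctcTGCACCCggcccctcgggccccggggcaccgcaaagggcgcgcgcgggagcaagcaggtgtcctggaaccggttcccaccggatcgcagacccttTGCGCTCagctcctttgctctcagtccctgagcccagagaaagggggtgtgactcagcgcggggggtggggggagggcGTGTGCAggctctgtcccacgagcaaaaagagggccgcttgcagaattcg
Mt1 held 1 match, 23 to 17 bases before the start, and Mt2 held 3. At least 1 match was found in 21.4% of all upstream sequences and at least 2 in 5.17%. A match is a description of the sequence, not a site or a cause, and none of the 5 held a match to the other motif.

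Metallothioneins, small proteins that bind zinc and copper, were higher after ventilation at both ages. Mt1 stood at 59.6, 354, 17.8 and 1729.8 CPM and was 5.94-fold higher (95% interval 3.97 to 8.87) in young and 97.1-fold higher (95% interval 56.3 to 183) in aged mice. It was found in 17 of 19 aged ventilated members, although 54.9% of its UMIs there came from the cell with the most UMIs. Mt2 stood at 6.75, 211, 2.74 and 501 CPM, from 6, 31, 2 and 182 UMIs, and was 31.3-fold higher (95% interval 12.9 to 91.7) in young and 183-fold higher (95% interval 49.9 to 1521) in aged mice. In the young ventilated library 83.9% of the Mt2 UMIs came from 1 cell. Of 10 tested genes of the glucocorticoid and metal response, 4 were called higher in young mice (Fkbp5, Errfi1, Mt1 and Mt2) and 1 lower (Tsc22d3), and in aged mice 4 were called higher (Fkbp5, Sgk1, Mt1 and Mt2), beside 10.4% of all genes called higher in young and 5.88% in aged mice. Fkbp5, a co-chaperone of the glucocorticoid receptor, stood at 69.8, 238, 65.8 and 242 CPM, and its values after ventilation were higher at both ages.

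Some genes by which leukocytes attach to endothelium were also called higher. Vcam1, the ligand of leukocyte integrin VLA-4, stood at 92.3, 1212, 54.8 and 559 CPM and was 13.1-fold higher (95% interval 10.1 to 17.3) in young and 10.2-fold higher (95% interval 7.24 to 14.7) in aged mice. Single cells held 69.7% and 71.9% of the UMIs in the ventilated libraries, so these levels were those of few cells. P-selectin (Selp) stood at 61.9, 149.8, 13.7 and 159.8 CPM, which was 2.42-fold higher (95% interval 1.41 to 4.03) in young and 11.7-fold higher (95% interval 5.91 to 25.6) in aged mice. E-selectin (Sele) stood at 27.0, 123, 0 and 116 CPM, from 24, 18, 0 and 42 UMIs. It was 4.54-fold higher (95% interval 2.32 to 8.72) in young mice and at least 28.1-fold higher in aged mice, where the nonventilated library was at 0 and the bound rests on 3 counts (the exact 95% interval began at 21.9-fold). In the aged ventilated library 78.6% of the Sele UMIs came from 1 cell. Of 11 tested genes of leukocyte adhesion and chemokines, 5 were called higher and 0 lower in young mice (Vcam1, Sele, Selp, Cxcl10 and Cx3cl1), while 4 were called higher and 2 lower in aged mice (Cxcl10 and Cxcl12). Of all genes, 10.4% were called higher and 10.6% lower in young mice, and 5.88% and 7.59% in aged mice. Vcam1 and Selp are also among the venous markers, whose sums given above were higher in both ventilated libraries, and the part of venous cells in these values was not tested.

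**Figure D3:**
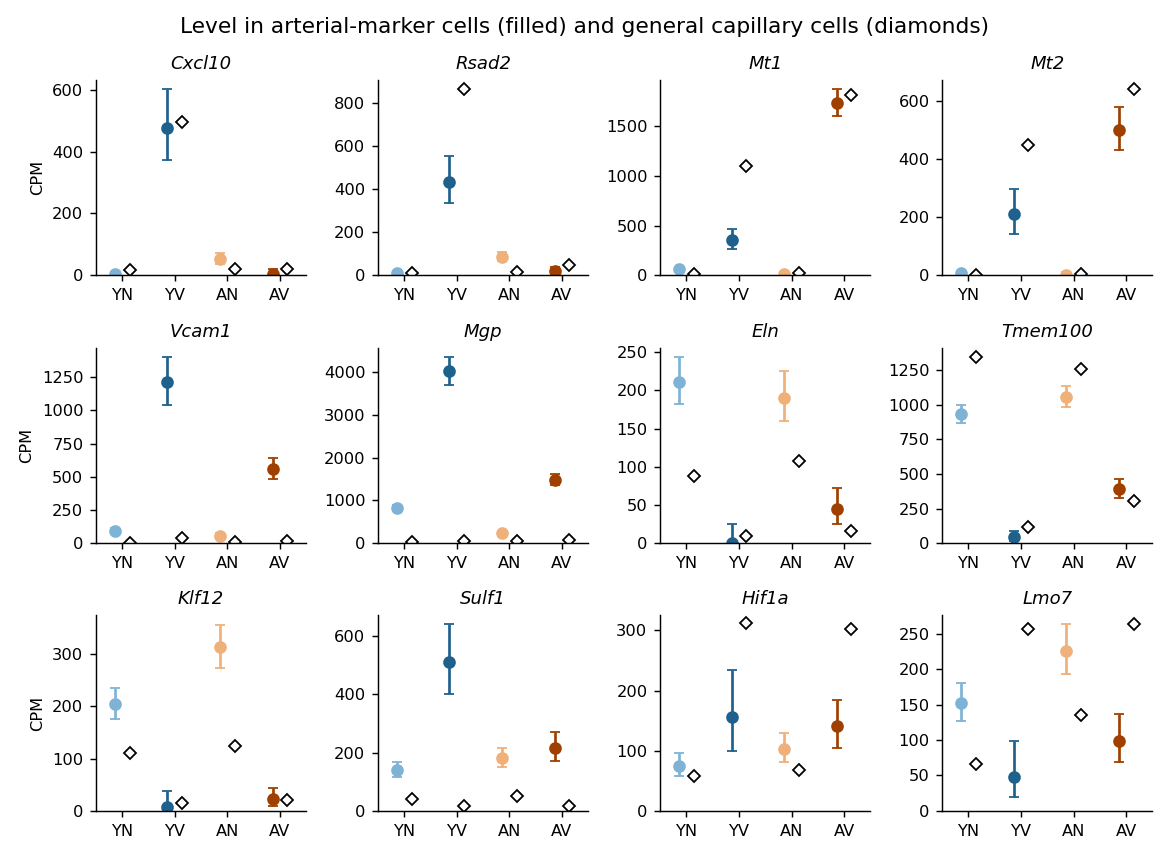
CPM (y axis) of 12 genes in arterial-marker cells (filled points, with exact Poisson 95% intervals for counting error) and in general capillary cells (open diamonds) of the nonventilated (YN, AN) and ventilated (YV, AV) libraries of young (Y) and aged (A) mice. Cxcl10 and Rsad2 are highest in YV, Mt1 and Mt2 in AV, and Eln and Tmem100 are lower in both ventilated libraries.

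Among matrix and hemostasis genes, Mgp was 4.90-fold higher (95% interval 4.39 to 5.47) in young and 6.42-fold higher (95% interval 5.39 to 7.68) in aged mice at the levels given above. In the young ventilated library 77.0% of its UMIs came from 1 cell. Ccn2 (connective tissue growth factor, a target of the stretch-sensing factor YAP) stood at 18.0, 789.7, 8.23 and 223 CPM, 43.9-fold higher (95% interval 25.9 to 79.3) in young and 27.1-fold higher (95% interval 11.9 to 76.1) in aged mice, with UMIs in 6, 5, 5 and 5 members. Its most positive cell held 75.0% of the young ventilated UMIs. Tissue plasminogen activator (Plat) stood at 182, 919, 192 and 1361 CPM, with UMIs in all 13 young and 18 of 19 aged ventilated members, and was 5.04-fold higher (95% interval 3.98 to 6.38) in young and 7.09-fold higher (95% interval 5.87 to 8.62) in aged mice. Plat was thus high in most ventilated members. The protease gene Adamts9 stood at 450.0, 1899, 894 and 3055 CPM, 4.22-fold higher (95% interval 3.61 to 4.93) in young and 3.42-fold higher (95% interval 3.10 to 3.77) in aged mice. Among coagulation and fibrinolysis genes, Plat and Adamts9 were called higher at both ages, and Thbd (thrombomodulin) was called lower in young mice.

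The remaining genes among the largest increases were led by Serpina3g, a protease inhibitor gene, at 13.5, 831, 15.1 and 245 CPM, 61.5-fold higher (95% interval 34.0 to 122) in young and 16.3-fold higher (95% interval 8.66 to 33.7) in aged mice. Noct (nocturnin) stood at 43.9, 654, 53.5 and 303 CPM, the activin subunit gene Inhbb at 12.4, 197, 79.5 and 262 CPM and the podosome scaffold gene Sh3pxd2b at 4.50, 149.8, 21.9 and 77.1 CPM. All 4 were higher in both ventilated libraries than in the nonventilated library of the same age. Ch25h, the cholesterol 25-hydroxylase gene, stood at 21.4, 259, 4.11 and 99.2 CPM and Galnt15, a glycosyltransferase gene, at 23.6, 88.5, 9.60 and 102 CPM, and both were among the 10 largest increases in aged mice. Gsn (gelsolin, which severs actin) stood at 57.4, 27.2, 28.8 and 267 CPM, but 95.9% of the aged ventilated UMIs came from the cell with the most UMIs. Without the highest member for Gsn in each library, the log2 ratio in aged mice was −0.25.

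The lowest ratios in young mice were led by elastin. Eln, which encodes the core of the elastic fiber, stood at 212, 0, 191 and 44.1 CPM, from 188, 0, 139 and 16 UMIs in 44, 0, 40 and 4 members. It was at least 10.4-fold lower in the young ventilated library, a bound that rests on 3 counts (the exact 95% interval began at 8.34-fold), and 4.32-fold lower (95% interval 2.57 to 7.77) in the aged ventilated library. Eln was therefore low in both ventilated libraries, and in general capillary cells it stood at 87.9, 8.78, 107 and 15.5 CPM. Tmem100, an endothelial membrane protein gene downstream of BMP receptors, stood at 933, 40.8, 1057 and 391 CPM, 22.8-fold lower (95% interval 10.4 to 62.4) in young and 2.70-fold lower (95% interval 2.26 to 3.26) in aged mice. Hmcn1, an extracellular matrix gene, stood at 1103, 74.9, 1093 and 146 CPM, 14.7-fold lower (95% interval 8.19 to 29.6) and 7.48-fold lower (95% interval 5.66 to 10.1). The sialyltransferase gene St6galnac3 stood at 473, 27.2, 632 and 118 CPM and was 17.4-fold lower (95% interval 6.73 to 64.0) in young mice. The transcription factor gene Klf12 stood at 204, 6.81, 313 and 22.0 CPM and was 29.9-fold lower (95% interval 5.30 to 1188) in young mice, from 1 UMI in the ventilated library, and 14.2-fold lower (95% interval 7.08 to 33.3) in aged mice. These 5 genes were lower in both ventilated libraries.

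Arl4d, a small GTPase gene, stood at 109, 0, 72.7 and 93.7 CPM, Ccser1 at 109, 0, 101 and 44.1 CPM, Gm49417 at 85.5, 0, 91.9 and 33.1 CPM and Nipal2 at 85.5, 0, 89.1 and 35.8 CPM. All 4 were at 0 UMIs in the young ventilated library, where the limit of 3 counts is 20.4 CPM. Arl4d and Ccser1 were at least 5.34-fold lower there by this limit (the exact 95% intervals began at 4.26-fold). The calls of Ccser1, Gm49417 and Nipal2 in young mice were lost in 4, 4 and 2 alternatives, for all 3 genes also without members holding markers of another type. In the aged ventilated library, Arl4d was not lower, while Ccser1 was 2.30-fold lower (95% interval 1.33 to 4.23).

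In aged mice the lowest ratio was that of Grik2, a glutamate receptor gene, at 72.0, 0, 173 and 2.75 CPM, which was 62.7-fold lower (95% interval 11.1 to 2496) from 1 UMI in the ventilated library. Nr3c2, the mineralocorticoid receptor gene, stood at 190.1, 47.7, 247 and 16.5 CPM and was 14.9-fold lower (95% interval 6.73 to 41.2). The long intervals of both genes reflect the few UMIs left after ventilation. Nckap5 stood at 2075, 327, 1941 and 262 CPM and was 7.42-fold lower (95% interval 6.02 to 9.23). Nxpe4, Cmah (which hydroxylates sialic acid), Nos1ap, Pcp4l1 and Hgf (hepatocyte growth factor) were 14.7, 13.0, 13.8, 13.1 and 11.4-fold lower in aged mice, with between 3 and 6 UMIs left in the ventilated library. In the aged nonventilated library 81.2% of the Hgf UMIs came from 1 cell.

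Genes of vascular tone and of growth signaling were counted next. Of 10 tested vasoactive genes, 4 were called lower (Calcrl, Ramp2, Npr3 and Nostrin) and 1 higher (Bdkrb2) in young mice, and 1 lower (Calcrl) in aged mice, beside 10.6% and 7.59% of all genes called lower (so the aged count is near that of all genes), with median log2 ratios of −0.53 and −0.23. Calcrl, the receptor for adrenomedullin, stood at 2669.9, 946, 3041 and 1209 CPM, 2.82-fold lower (95% interval 2.38 to 3.37) in young and 2.51-fold lower (95% interval 2.27 to 2.79) in aged mice, and its partner Ramp2 at 980.0, 225, 803 and 556 CPM. Npr3, the natriuretic peptide clearance receptor gene, stood at 270.0, 20.4, 285 and 201 CPM, 13.2-fold lower (95% interval 4.47 to 64.6) in young mice. Of 12 tested genes of the VEGF and angiopoietin axis, 6 were called lower and 0 higher in young mice (Vegfa, Nrp1, Tek, Ptprb, Adgrl4 and Sema6a), and 3 lower (Nrp1, Tek and Ptprb) and 1 higher (Sema3f) in aged mice. Their median log2 ratios were −0.89 and −0.33. General capillary markers moved with them. Of 9 tested, 6 were called lower in young and 4 in aged mice, Tek and Ptprb of both lists among them, and the 10 markers summed to 10660.4, 4105, 10872 and 6991 CPM in the members. Their part in these values was not tested. Tek, the angiopoietin receptor gene Tie2, stood at 759, 204, 694 and 231 CPM, 3.72-fold lower (95% interval 2.58 to 5.55) in young and 3.00-fold lower (95% interval 2.38 to 3.82) in aged mice. The flow-induced factor genes Klf2, at 1509, 599, 1041 and 353 CPM, and Klf4, at 1229, 218, 975 and 424 CPM, were called lower at both ages. Of 19 tested flow and mechanosensing genes, 2 were called higher (Ccn2 and Tead1) and 3 lower (Klf2, Klf4 and Thbd) in young mice, and 2 higher (Ccn1 and Ccn2) and 2 lower in aged mice, beside 10.4% of all genes called higher in young and 5.88% in aged mice.

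Arterial identity genes were called in both directions. The counts here are read beside 10.4% of all genes called higher and 10.6% lower in young mice, and 5.88% and 7.59% in aged mice. Of 22 tested, 5 were called higher (Dll4, Mgp, Cdh13, Tm4sf1 and Sulf1) and 3 lower (Sox17, Nrp1 and Eln) in young mice, and 3 higher (Mgp, Cdh13 and Hspb1) and 6 lower (Cxcl12, Sox17, Nrp1, Eln, Stmn2 and Slc6a6) in aged mice. Dll4, an arterial Notch ligand, stood at 151, 436, 141 and 234 CPM and was 2.89-fold higher (95% interval 2.11 to 3.92) in young mice, with UMIs in 11 of 13 ventilated members. It was the only one of 12 tested Notch pathway genes called in young mice, and none was called in aged mice. Sox17, a factor of the arterial program, stood at 159, 40.8, 165 and 77.1 CPM, lower in both ventilated libraries. Of 8 basement membrane genes, 2 were called higher in young mice (Lama5 and Tinagl1) and 3 in aged mice (Col4a2, Lamc1 and Tinagl1), with medians of 0.88 and 0.74. Of 9 heat shock genes, 0 were called in young mice and 3 higher in aged mice (Hspa5, Hsp90ab1 and Hspb1), with medians of 0.39 and 0.64.

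**Figure D4:**
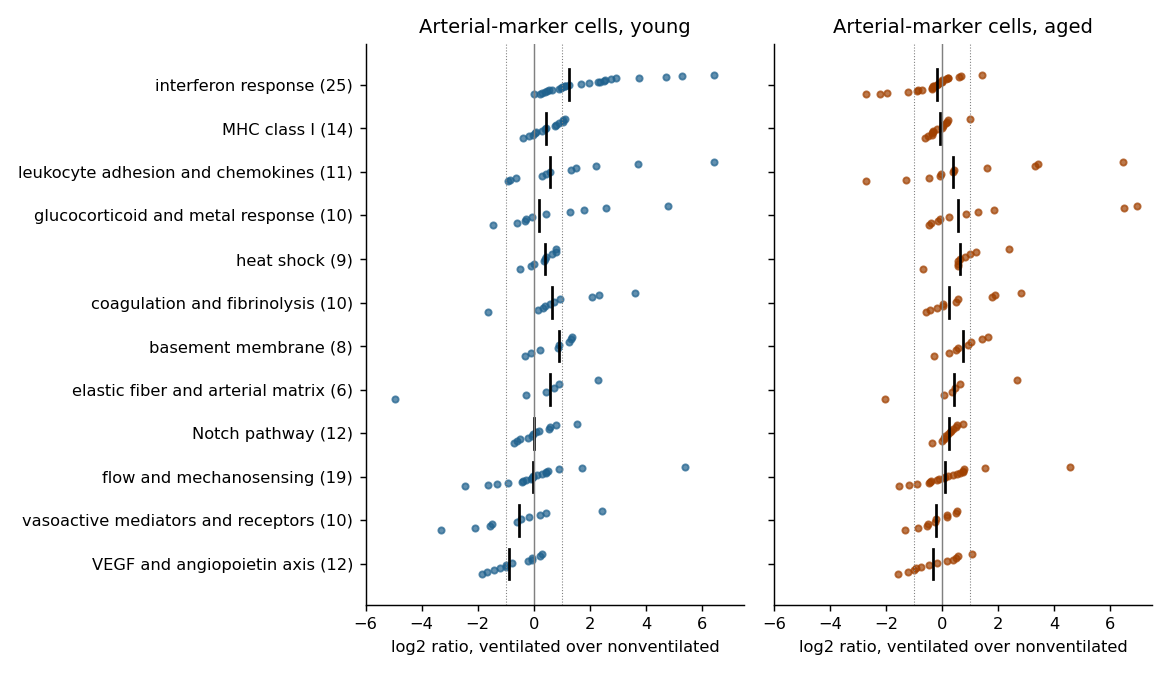
Log2 ratio of CPM after ventilation (x axis) for the tested genes of 12 lists in arterial-marker cells of young (left) and aged (right) mice, with a point per gene, a bar at each median and the number of tested genes in brackets. The interferon list has a median of 1.25 in young and −0.20 in aged mice, while the VEGF and angiopoietin list has medians of −0.89 and −0.33.

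Age was then compared without ventilation, where the members were most numerous. Of the 3638 genes, 79 were called (2.17%), with 57 higher (1.57%) and 22 lower (0.605%) in the aged library. The count was larger with the limits of the study, after thinning, without mixed members and with equal numbers of members, as given with the processing. Inhbb was 6.42-fold higher (95% interval 3.34 to 13.6), and 55.2% of its aged UMIs came from 1 cell. Cmah was 6.14-fold higher (95% interval 4.01 to 9.75) at 29.3, 0, 179.6 and 13.8 CPM, and the synaptic scaffold gene Homer1 was 4.45-fold higher (95% interval 3.07 to 6.58) at 41.6, 47.7, 185 and 24.8 CPM. The elongation factor gene Ell2 was 4.53-fold, the neurotrophin receptor gene Ntrk2 3.96-fold and Macrod2 3.51-fold higher. All 6 genes were higher in the aged nonventilated than in the young nonventilated library. Among genes lower with age, Mgp was 3.54-fold lower (95% interval 2.99 to 4.22), Fam3c, which encodes a secreted protein, was 3.57-fold lower (95% interval 2.37 to 5.54) at 142, 95.3, 39.8 and 44.1 CPM, and the calcium-binding protein gene S100a6 was 3.51-fold lower (95% interval 2.19 to 5.86) at 106, 102, 30.2 and 2.75 CPM. Fam43a, AW112010 and the vesicle SNARE gene Vamp8 were 2.41-fold, 2.38-fold and 2.21-fold lower, and the calls of Vamp8 and AW112010 were lost in 8 and 4 alternatives. That of S100a6 was lost in 3 and those of Mgp, Inhbb, Cmah, Macrod2 and Fam43a in 2 each, Inhbb, Cmah and Macrod2 with the limits of the study among them. With 13 members drawn from each library, the log2 ratios of Mgp and S100a6 were 3.61 and 2.36, opposite in sign, so both rested on few cells.

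Between the ventilated libraries, 418 genes were called (11.5%), with 185 higher (5.09%) and 233 lower (6.4%) in aged mice. Without the highest member of each gene this balance turned, and most calls were higher, as given with the processing. Of the 25 interferon response genes, 21 were called lower and 0 higher, with a median log2 ratio of −1.63 beside −0.03 over all genes. In general capillary cells the median was −1.38. As given above, some genes of the list passed the filter only through the young ventilated library, which favored calls as lower in aged mice. Cxcl10 was 86.5-fold lower (95% interval 23.1 to 728), Rsad2 22.6-fold lower (95% interval 10.4 to 58.5), Ifit3 18.8-fold lower (95% interval 9.68 to 40.7) and Gbp2 12.4-fold lower (95% interval 8.36 to 18.8). Without ventilation, 4 genes of the list (Isg15, Ifit3, Rsad2 and Cxcl10) were called higher in the aged library and 0 lower. Of all genes, 1.57% were called higher and 0.605% lower there. The median of the list was 0.06, with 13 genes at a higher and 12 at a lower value. In the aged nonventilated library, 1 of 56 cells held 27.0% of the Isg15, 71.0% of the Rsad2 and 53.8% of the Cxcl10 UMIs. Of 14 MHC class I genes, whose copies can share reads, 7 were called lower and 0 higher in the aged ventilated library, with a median of −0.84, and 3 were called higher in young mice after ventilation (Tap2, Nlrc5 and Psmb8), beside 10.4% of all genes, and 1 in aged mice (Tap2), beside 5.88%. Tap1, Psmb8 and Psmb9, called lower in the aged ventilated library, are also in the interferon list, so the counts of both lists overlap. The other named genes lower in the aged ventilated library were S100a6, with 1 UMI left, and the collagen gene Col5a2, 13.8-fold lower (95% interval 5.28 to 45.9) at 58.5, 191, 19.2 and 13.8 CPM. Those higher were Sox5 and Arl4d, which were at 0 UMIs in the young ventilated library, Tmem100 (9.58-fold), the heparan sulfate epimerase gene Glce, at 49.5, 6.81, 49.4 and 107 CPM, and Gsn. Of these, Sox5 and Gsn turned sign in 2 and 4 alternatives, the calls of Sox5, Glce and Gsn were lost in 4, 4 and 5, and 64.3% of the Sox5 UMIs in the aged ventilated library came from 1 cell. The age difference after ventilation is that of 13 against 19 cells.

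**Figure D5:**
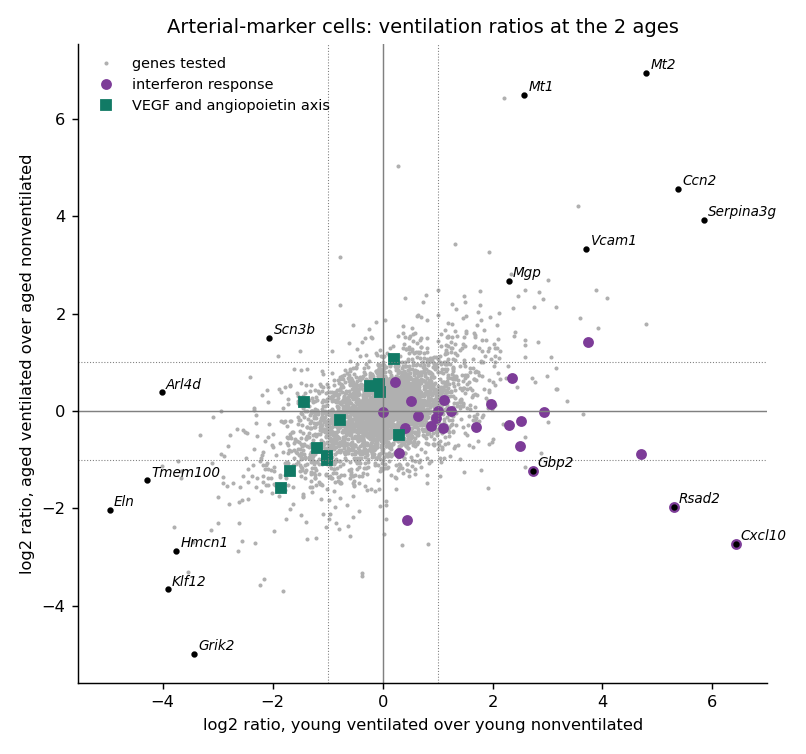
Log2 ratio of CPM after ventilation in young (x axis) and aged (y axis) mice for 3638 genes in arterial-marker cells, with 1 UMI added to each sum; dotted lines mark log2 ratios of 1 and −1. The interferon genes Cxcl10, Rsad2 and Gbp2 lie right of the upper and below the lower line, whereas Mt1, Mt2, Ccn2, Vcam1 and Mgp lie above both and Eln, Hmcn1 and Klf12 below both.

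Most calls had the same sign in the capillary bed. Of the 761 young and 490 aged calls, 701 and 452 had the same sign in general capillary cells of the same libraries, and the log2 ratios of both classes had a Pearson r of 0.73 in young and 0.71 in aged mice across genes, which are not independent replicates. To test where the classes differed, UMIs were summed over each of 4 endothelial classes in each library (arterial-marker, venous-marker, aerocyte and general capillary cells, 16 sums), and the difference in ventilation response between arterial-marker and general capillary cells was tested with edgeR's quasi-likelihood test, with a term for each library and 6 residual degrees of freedom. The libraries of both ages served as replicates, so the test says nothing on age. Of 10214 genes tested, 4 (0.0392%) had an adjusted p under 0.05 (Benjamini-Hochberg), and 894 had an unadjusted p under 0.05.

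Sulf1, which edits heparan sulfate on the cell surface, had a log2 difference of 2.47 (SE 0.38, edgeR adjusted p = 0.03445). It stood at 139.5, 511, 181 and 218 CPM in arterial-marker cells and at 41.0, 15.8, 51.0 and 15.9 CPM in capillary cells, higher after ventilation in the former and lower in the latter at both ages. However, single cells held 72.0% and 74.7% of the Sulf1 UMIs in the ventilated libraries. Hif1a, the hypoxia-inducible factor gene, had a difference of −1.70 (SE 0.28, edgeR adjusted p = 0.04648), with 75.4, 157, 103 and 140.5 CPM against 58.8, 312, 68.0 and 302 CPM. It was higher after ventilation in both classes and more so in capillary cells. The adaptor gene Lmo7 had a difference of −2.71 (SE 0.42, edgeR adjusted p = 0.03445), with 152, 47.7, 226 and 99.2 CPM against 66.1, 257, 135 and 264 CPM, and the muscarinic receptor gene Chrm2 a difference of −2.96 (SE 0.50, edgeR adjusted p = 0.04648), with 57.4, 20.4, 78.1 and 11.02 CPM against 99.6, 173, 95.4 and 130.5 CPM. Both were lower after ventilation in the members and higher in capillary cells. Depp1, Tmtc2, Pdzd2, Bcl2l1, Fmo2 and Pls3 came next by p, with edgeR adjusted p of 0.07508 to 0.09762. The calls depended on the setting: leaving out a young library gave 3 (nonventilated) and 2 (ventilated) genes, of which 1 and 0 were among the 4, leaving out an aged library gave 9 (nonventilated) and 44 (ventilated), of which 2 and 3 were among the 4, and with median-of-ratios scaling 0 passed (855 at an unadjusted p under 0.05). Each of the 4 genes had the same sign in all 11 alternatives and passed in 5 (Sulf1), 5 (Hif1a), 7 (Lmo7) and 4 (Chrm2) of them.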

How the data were processed

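The submitters' processing notes name Cell Ranger 7.0.0 and mm10, and the authors deposited whole-number UMI counts of 32285 genes in each barcode, which were not normalized. All CPM, log2 ratios, shares and intervals were computed here from these counts. Groups came from the sample titles. Members followed the stated rule, and the members, lists and rules were chosen with earlier results of these data known. For the comparisons, the 13 genes of the rule were left out. Named genes were the 10 highest and 10 lowest log2 ratios (ventilation), or the 6 highest and 6 lowest (age), among called genes with a UMI in at least 20% of the members of the higher library, and the 10 lowest p-values between classes. Ratios against 0 used 3 counts. The class test used edgeR 4.0.16 in R 4.3.3 with TMM scaling and filterByExpr, with DESeq2 1.42.0 as an alternative, and the rest used Python 3.11.15, numpy 2.4.6, scipy 1.17.1, pandas 2.3.3 and matplotlib 3.10.9. On counts simulated with Poisson error alone, 95.7% to 96.9% of intervals held the true ratio. A 2-fold change was called in 58% (young) and 47% (aged ventilation) of 200 genes among 3645. These counts had no spread between cells or mice, so they do not show how the intervals hold in the real data. On simulated counts, the class test found 25%, 81% and 95.5% of 200 genes with log2 differences of 1, 2 and 3, among 9722, 9707 and 9752 genes. Alternatives varied the limits on cells, the rule, scaling, depth, the gene filter and the fold. The authors' own clusters were not used here. A few genes that met the rules for naming are not reported here.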

Additional observations from a re-analysis of the deposited data

Results flagged for a closer look

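In arterial-marker cells, 12 genes were called in opposite directions after ventilation at the 2 ages. The difference between the ages was not tested, since each group was 1 pooled library. Higher in young and lower in aged mice were Cxcl10 (log2 ratios 6.43 and −2.73), Rsad2 (5.30 and −1.97), Gbp2 (2.74 and −1.23) and Ifi206 (2.60 and −1.15), all known as interferon-induced genes. In the aged nonventilated library, 1 of 56 cells held 53.8% of the Cxcl10 and 71.0% of the Rsad2 UMIs. All 17 UMIs of Ifi206 in the young ventilated library came from 1 of 13 cells. In the same direction were Atg4a, an autophagy protease gene (1.92 and −1.58), Olfr56 (1.78 and −1.22), Uaca (1.48 and −1.26), Dcaf6 (1.06 and −1.05) and Lurap1l (1.05 and −1.33). Lower in young and higher in aged mice were Scn3b, a sodium channel subunit gene (−2.06 and 1.49), Glce (−1.89 and 1.12) and Rspry1 (−1.51 and 1.23). These names beyond the rule were chosen by this pattern after their values were seen. Several rested on few UMIs or cells in the young ventilated library, with 19 UMIs of Atg4a in 2 cells. Scn3b, Glce and Rspry1 had 3, 1 and 4 UMIs there. Of the 761 young calls, 610 had the same sign in aged mice.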

How the results depend on the processing

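No paired analysis was possible because each group had 1 library; the class test had library as a term. Depth limits these results most in the young ventilated library (13 members). Of 90 alternatives of the counts, shares and the class test, 44 kept the result within the set range. With at least 3 arterial markers (18, 1, 11 and 1 members), 494, 783 and 515 genes were called for young ventilation, aged ventilation and age without ventilation, 71.9% of the young calls were higher, and the shares were 0.612%, 0.0301%, 0.364% and 0.0392%. Thinned to 3000 UMIs per cell, 484 (young), 161 (age, nonventilated) and 245 (age, ventilated) were called. Of the 761 young calls, 44.5% were still called the same way after thinning. Without members holding markers of another type 47.4% were, and with at least 3 markers 20.4%, while the other settings kept 73.3% or more. A minimum of 10 CPM gave 1222, 1167, 413 and 730 calls, no filter 1317, 1342, 659 and 767, and a fold of 1.5 gave 1035 (aged), 399 and 640 (age). Age without ventilation gave 126 calls with the limits of the study, 130 with at most 5% mitochondrial UMIs, 177 without members holding markers of another type and 392 with equal numbers of members. Without the highest member of each gene (added after the data were seen), 27.6% of 827 young and 32.1% of 554 aged ventilation calls were higher, instead of 49.5% and 43.7%, and 63.4% of 424 age calls after ventilation, instead of 44.3%.

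The young nonventilated share was 1.82% with at most 5% mitochondrial UMIs. Without members holding markers of another type the shares were 1.60%, 0.180%, 1.22% and 0.431%. Those of endothelial barcodes (7.39%, 1.41%, 7.23% and 3.09%) and by 4 of 8 genes (0.782%, 0.721% and 0.793%) are given above. The class test called 33 genes with DESeq2, 133 without a filter, 11 with 2 classes alone, 11 after thinning, 0 with classes drawn to equal numbers (601 at an unadjusted p under 0.05), 0 with median-of-ratios scaling and 2 to 44 without 1 library.

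Across the alternatives, signs turned in 17 checks of the 64 named ratios. With at least 3 markers, the young log2 ratios of Arl4d, Ccser1, Gm49417 and Nipal2 were 0.11, 1.11, 0.60 and 0.46, and between ventilated libraries those of Sox5, Tmem100 and Gsn were −1.38, −0.38 and −2.97. Gsn in aged ventilation was −1.48 with the limits of the study, −1.10 without mixed members and −0.25 without its highest member in each library. By age after ventilation it was −1.94, −2.25 and −0.46 in the same settings. Sox5 was −0.67 without mixed members, Hgf 0.26 in aged ventilation with at most 5% mitochondrial UMIs, and Mgp and S100a6 3.61 and 2.36 by age with equal numbers. Beyond the numbers of cells, the causes were not tested.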

Other observations

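In young mice 10.4% of all genes tested in the arterial-marker cells were called higher and 10.6% lower after ventilation, and in aged mice 5.88% and 7.59%. Of 20 immediate early genes, 2 were called higher (Fosl2 and Ier5) and 3 lower (Jun, Zfp36 and Dusp6) in young mice, and 1 higher (Maff) and 1 lower (Egr3) in aged mice. Of 9 targets of the oxidative stress factor NRF2, 2 were called higher at each age (Gclc and Txnrd1 in young, Gclm and Gclc in aged mice), and none lower. Of 11 NF-κB feedback genes, 3 were called higher in young mice (Tnip1, Birc3 and Sod2) and 1 lower in aged mice (Irf1). Among junction genes, Cdh13 was called higher at both ages and Jup lower in young mice. Among TGF-β and BMP genes, Inhbb was called higher at both ages and Acvrl1 lower in young mice, and of 6 p53 and senescence genes Gadd45b and Gadd45g were called higher in young mice. Of 4 integrated stress response genes, Ppp1r15a was called lower in young mice and none was called in aged mice. Lyve1, known as a lymphatic marker, was called higher at both ages at 586, 1328, 458 and 1600.4 CPM, with 528, 1469, 475 and 1764 CPM in general capillary cells.

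Single cells weighed heavily on the ventilated sums. The young ventilated member ranked 4 by UMIs held 72.0% of Sulf1, 78.6% of Mecom, 69.7% of Vcam1, 83.9% of Mt2, 75.0% of Ccn2 and 60.3% of Efna5 UMIs. The aged ventilated member ranked 3 held 74.7% of Sulf1, 71.9% of Vcam1, 78.6% of Sele and 75.2% of Cdh13 UMIs. In the larger nonventilated libraries, at most 9.39% of the Tmem100, Hmcn1 or Ptprb UMIs came from 1 cell, and in the young and aged ventilated libraries 33.3% and 20.4% (Tmem100), 36.4% and 20.8% (Hmcn1) and 13.2% and 13.0% (Ptprb).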
